A study of Mus musculus with 4 samples.

Results

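Ccl2, Ccl7, Ccl11, Il6, Cxcl12 and Il33 are 6 genes for chemokines and cytokines that mesenchymal progenitors of fat can make. Their surroundings were examined in lists of open chromatin from adipose progenitors, the cells of fat tissue that can become adipocytes. The members were all ATAC-seq peaks that overlapped 4 windows of the mouse build mm9: chromosome 11 from 81800000 to 81940000 for Ccl2, Ccl7 and Ccl11, chromosome 5 from 30270000 to 30420000 for Il6, chromosome 6 from 117050000 to 117230000 for Cxcl12, and chromosome 19 from 29920000 to 30090000 for Il33. The windows held 133 peaks, which merged into 59 regions of the 83319 in the series. In ATAC-seq a transposase cuts accessible DNA, so that a peak marks a stretch that was open in many cells of a library.

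There were 2 groups, SAT (progenitors of subcutaneous fat) and VAT (progenitors of visceral fat), with 2 libraries each, called SAT 1, SAT 2, VAT 1 and VAT 2. All cells were freshly isolated from C57BL/6 mice aged 16 weeks, with no treatment and no genetic change named in the labels. The labels name neither the markers used for isolation nor the number of animals behind a library, so p-values measure the spread between these libraries, which may be technical. A peak list gives no read counts, so the depth is unknown and closed chromatin cannot be read from the absence of a peak. The lists held 56823 peaks in SAT 1, 22845 in SAT 2, 56907 in VAT 1 and 62279 in VAT 2, and the short SAT 2 list touches every comparison of depots. No gene annotation of build mm9 was used here: regions are assigned to a gene's window, not to its promoter or introns, and the progenitor label was not checked against marker genes.

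Chemokines are small secreted proteins that draw leukocytes along a gradient. CCL2 and CCL7 attract monocytes through the receptor CCR2, CCL11 (eotaxin) attracts eosinophils through CCR3, and CXCL12 holds CXCR4-bearing blood cells near stromal cells. IL-6 is a cytokine that signals through gp130 and STAT3 and is induced in inflammation, and IL-33 is a nuclear alarmin that acts on regulatory T cells and innate lymphoid cells in fat through the receptor ST2. In the RefSeq gene order of build GRCm38.p6, Ccl2, Ccl7 and Ccl11 follow each other and are followed by Ccl12 and Ccl8, which belong to the same chemokine family. Without an mm9 annotation, regions of the chromosome 11 window were not divided among these genes.

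The sequences just before the transcription start, where at hand, held different motif matches from gene to gene. RefSeq sequences of build GRCm38.p6 were at hand for 3 of the 6 genes, and the 250 bases before each listed start are shown, 5′ to 3′ on the gene's strand, which is the plus strand in each case. The Il6 sequence is shown because its window was led by 1 region in every library, and the Cxcl12 and Il33 sequences because their windows were not; Il33 has 2 listed starts, on chromosome 19. Il6 lies on chromosome 5 and Cxcl12 on chromosome 6. Capitals mark matches, on either strand, to κB, AP-1 (TGANTCA), C/EBP (TTGNNCAA), the CRE core (TGACGT), the GC box (GGGCGG) or the TATA box (TATAAA). Positions in this build were not set beside the mm9 peaks.
Il6: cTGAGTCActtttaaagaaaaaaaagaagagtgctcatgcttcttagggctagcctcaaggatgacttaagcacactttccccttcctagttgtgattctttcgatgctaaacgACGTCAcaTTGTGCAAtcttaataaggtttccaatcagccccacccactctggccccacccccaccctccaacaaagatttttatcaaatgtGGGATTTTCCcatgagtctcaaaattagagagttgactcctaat
Cxcl12: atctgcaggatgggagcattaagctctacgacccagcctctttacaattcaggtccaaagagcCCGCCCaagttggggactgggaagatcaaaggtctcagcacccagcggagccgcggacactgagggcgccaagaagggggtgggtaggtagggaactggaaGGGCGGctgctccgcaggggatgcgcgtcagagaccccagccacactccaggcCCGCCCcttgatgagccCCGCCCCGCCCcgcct
Il33, first start: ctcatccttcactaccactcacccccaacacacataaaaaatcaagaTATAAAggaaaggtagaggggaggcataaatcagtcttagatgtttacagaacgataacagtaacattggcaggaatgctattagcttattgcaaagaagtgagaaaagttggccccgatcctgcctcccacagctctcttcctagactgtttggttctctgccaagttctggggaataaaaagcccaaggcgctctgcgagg
Il33, second start: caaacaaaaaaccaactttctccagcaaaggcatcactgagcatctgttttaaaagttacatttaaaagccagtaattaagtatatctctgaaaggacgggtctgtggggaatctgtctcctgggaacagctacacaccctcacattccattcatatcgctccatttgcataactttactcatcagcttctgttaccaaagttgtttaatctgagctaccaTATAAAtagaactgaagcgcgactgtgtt

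Letters for 4 factors of inflammatory gene control stood in the Il6 sequence. These were the κB letters GGGATTTTCC from 44 to 35 bases before the start, the C/EBP letters TTGTGCAA from 128 to 121, the CRE core (as ACGTCA) from 136 to 131, and the AP-1 letters TGAGTCA from 249 to 243. NF-κB, C/EBP proteins, CREB and AP-1 are known regulators of this gene. Of the 32851 promoter sequences of the same length in the table, 3.90% held the κB letters, 6.75% AP-1, 5.65% C/EBP and 6.47% the CRE core. The Cxcl12 sequence held 5 matches to the GC box, which 32.7% of all sequences hold, and 64.4% of its bases were G or C against a median of 52.4%; its last 2 matches share a base. Each Il33 sequence held 1 match to the TATA box (12.4% of all sequences). The matches lay from 203 to 198 bases before the first start and from 29 to 24 bases before the second. The G and C contents of these 2 sequences were 45.2% and 39.6%. No matches overlapped those of another motif. A match is a description of letters, not of a bound site.

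The 4 windows differed in how much open chromatin they held. The chromosome 11 window (Ccl window) was the densest, with 19 peaks in SAT 1, 4 in SAT 2, 18 in VAT 1 and 17 in VAT 2. All 4 values lay above the median of 13364 tiles of the same length (140 kb), which was 3, 1, 3 and 4 peaks in the same order. In SAT 2, 16.1% of tiles held as many peaks as this window, whereas in SAT 1 (0.486%), VAT 1 (0.756%) and VAT 2 (1.56%) few tiles did. The Il33 window held 10, 3, 11 and 8 peaks in SAT 1, SAT 2, VAT 1 and VAT 2, against tile medians of 4, 1, 4 and 4. The Cxcl12 window held 7, 2, 7 and 9 peaks, against the same medians. The Il6 window held 5, 4, 6 and 3 peaks, the fewest of the windows in SAT 1, VAT 1 and VAT 2 but not in SAT 2, against medians of 3, 1, 3 and 4, and VAT 2 there lay below its median. The share of tiles with at least as many peaks as the Il33 window was 15.4%, 30.3%, 13.0% and 27.8% in SAT 1, SAT 2, VAT 1 and VAT 2. In the same order it was 31.2%, 45.3%, 31.1% and 24.7% for the Cxcl12 window, and 39.2%, 17.7%, 31.6% and 61.6% for the Il6 window. Tiles are the consecutive stretches of a window's length that held at least 1 merged region, with peaks placed by their centre.

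**Figure D1:**
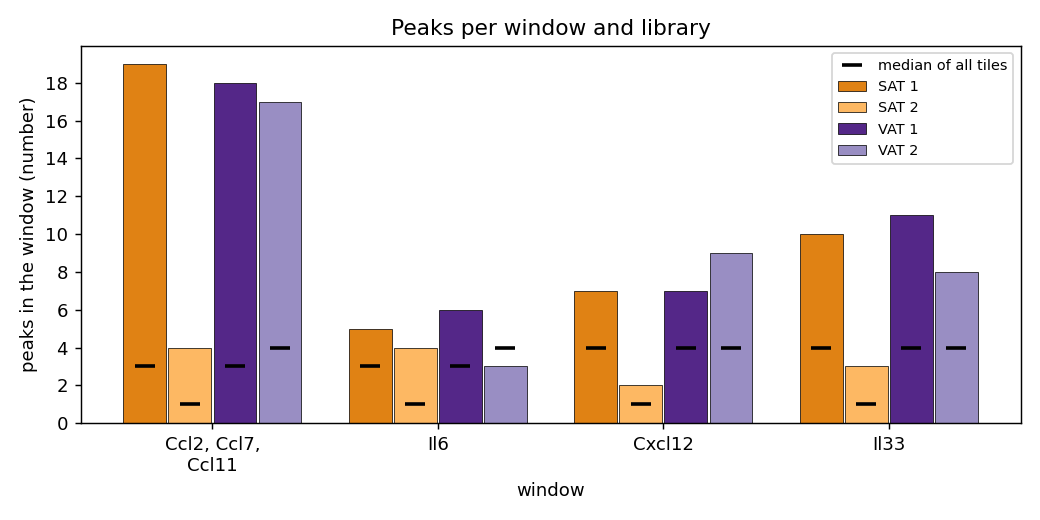
Number of peaks in each window (x axis) in each of the 4 libraries (bars), with the median number over all genome tiles of the same length (black marks). The Ccl window holds 17 to 19 peaks in SAT 1, VAT 1 and VAT 2 and 4 in SAT 2, all above the marks.

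Each peak has the authors' score, which was used only as a percentile within its own list (the share of the list's peaks with a lower score, ties shared). Regions are named here by their window and the distance of their first base from the window's start in kb, so that Ccl +20.3 begins 20.3 kb into the chromosome 11 window. Peaks with high percentiles stood in the Ccl, Il6 and Il33 windows and not in the Cxcl12 window. The highest percentile in the Ccl window was 90.7 in SAT 1, 83.0 in SAT 2, 92.3 in VAT 1 and 87.5 in VAT 2. In the Il6 window it was 91.8, 78.3, 90.03 and 89.0 in the same order, and in the Il33 window 92.0, 84.1, 88.7 and 88.7. In the Cxcl12 window it stayed at 60.7, 61.4, 60.4 and 62.6, lower in each library than in any of the other windows. A window with more peaks has more chances of a high value, and the highest percentile of other tiles was not computed. These maxima are therefore not shown to be unusual. The Il6 window had fewer peaks than the Cxcl12 window in SAT 1, VAT 1 and VAT 2, and more in SAT 2.

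**Figure D2:**
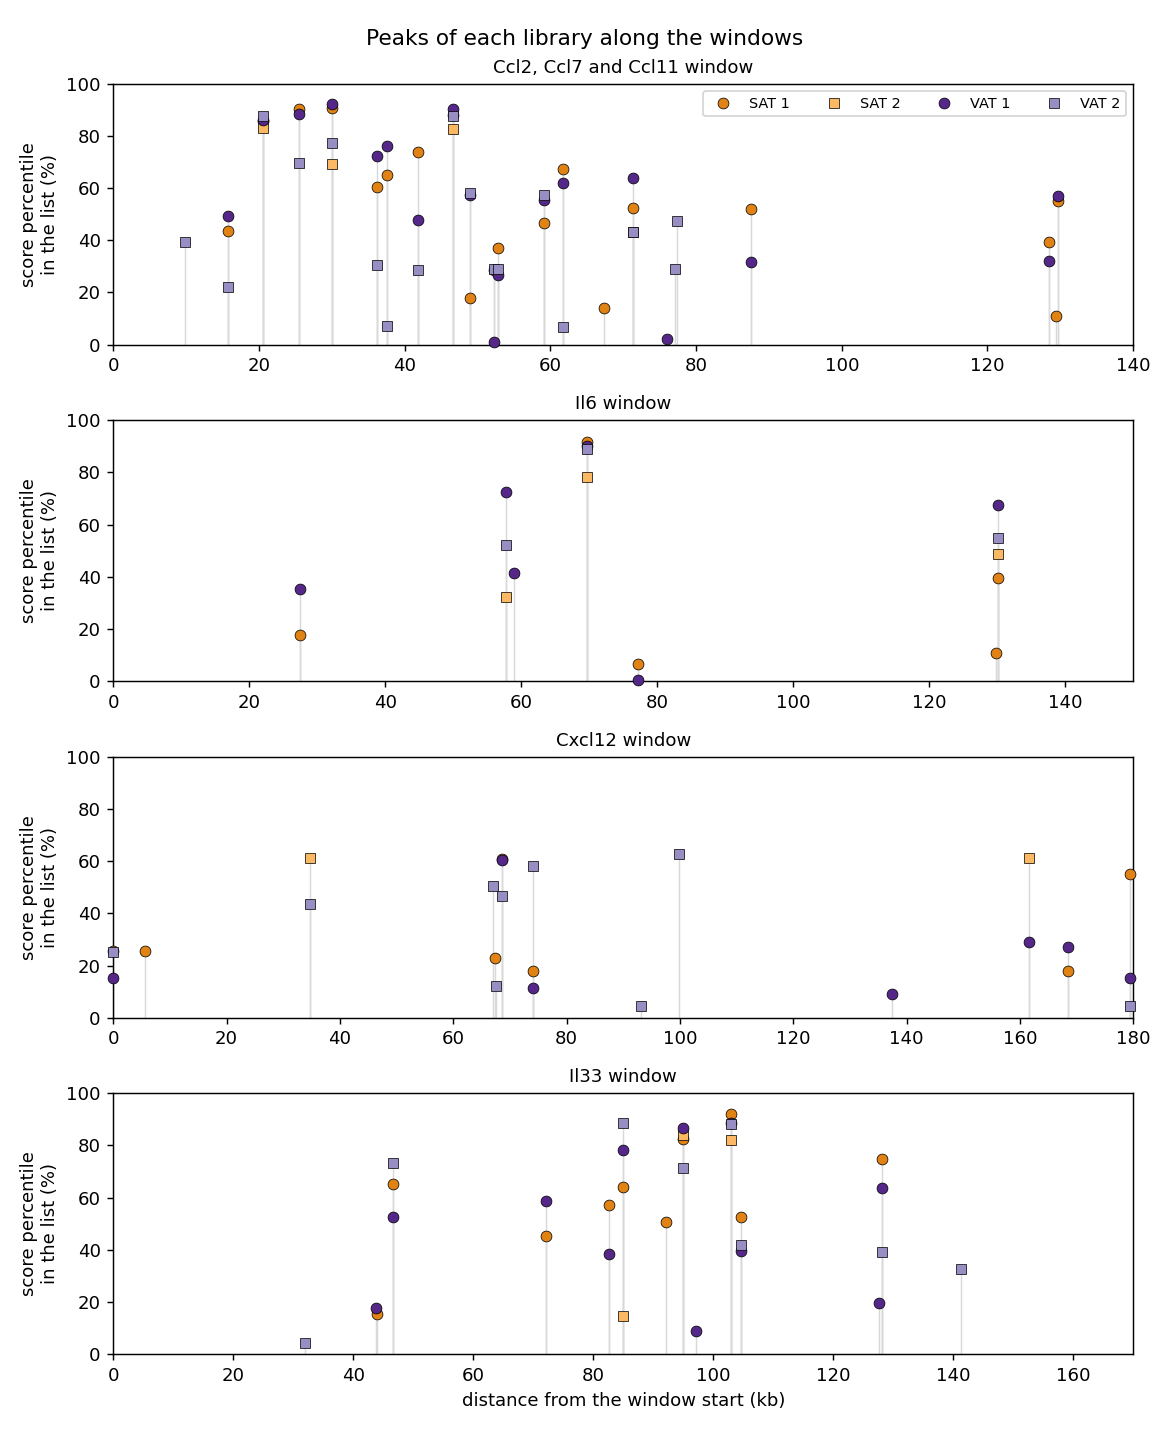
Score percentile of the highest peak in each merged region (y axis, within the library's own list) along each window (x axis, kb from the window's start), for SAT 1, SAT 2, VAT 1 and VAT 2. The peaks of the Ccl window above the percentile of 80 lie between 20.3 and 46.3 kb, the Il6 window has 1 such region, and the Cxcl12 window has none.

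The chromosome 11 window around the monocyte and eosinophil chemokines held 23 regions, of which 19 lay between Ccl +9.8 and Ccl +77.3. A further region followed at Ccl +87.4, and then no library had a peak for 40.8 kb, up to a group of 3 regions from Ccl +128.4. In 4 regions all libraries had a peak. Ccl +20.3 (81820300 to 81820810) had percentiles of 85.7 in SAT 1, 83.0 in SAT 2, 86.0 in VAT 1 and 87.5 in VAT 2, the most even of the 4. Ccl +46.3 (81846293 to 81846935), the widest region of the window at 643 bp, had 87.8, 82.5, 90.3 and 87.4. Ccl +29.7 (81829732 to 81830250) had 90.7, 69.2, 92.3 and 77.4, so that both replicate 1 libraries stood above both replicate 2 libraries. Ccl +71.2 (81871177 to 81871440) was weaker, with 52.4, 43.0, 63.9 and 43.3, and again both replicate 1 libraries were higher. The same order held, by a small margin, at Ccl +46.3.

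Another 10 regions of this window lacked a peak in SAT 2 alone, and they fell into different orders. Ccl +25.4 (81825354 to 81825683) was the strongest and had percentiles of 90.5 (SAT 1), 88.5 (VAT 1) and 69.6 (VAT 2). Ccl +36.0 had 60.4, 72.3 and 30.5, Ccl +37.4 had 64.9, 76.2 and 7.15, and Ccl +61.5 had 67.3, 61.8 and 6.82, in the same order. Ccl +41.7 had 73.7, 47.8 and 28.5, and Ccl +15.6 had 43.6, 49.5 and 22.2. In these 6 regions SAT 1 and VAT 1 stood above VAT 2. At 2 regions the order followed the depot: Ccl +48.9 (81848887 to 81849141) had 17.9 in SAT 1, 57.2 in VAT 1 and 57.9 in VAT 2, and Ccl +59.0 (81859048 to 81859268) had 46.8, 55.6 and 57.2, with no SAT 2 peak at either. The remaining 2, Ccl +52.1 and Ccl +52.7, stayed at or below the percentile of 36.9 in each library.

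Read over all regions with a peak in every library except SAT 2, 35.6% had both replicate 1 libraries above VAT 2 and 31.7% had both visceral libraries above SAT 1. In the Ccl window these counts were 6 of 10 and 2 of 10, and in all 4 windows 9 of 17 and 2 of 17. Of the 14 regions of the Ccl window shared by VAT 1 and VAT 2, 9 had the lower percentile in VAT 2, with a median difference (VAT 2 minus VAT 1) of -16.9. Over all 39781 regions shared by these libraries the median difference was 2.33, and 57.7% were higher in VAT 2. For VAT 1 minus SAT 1, whose lists have nearly the same length, the median difference was 1.65 over 17 regions of the Ccl window and 0.0396 over all 43569 shared regions. This was not so in every window: the median of VAT 2 minus VAT 1 was 0.886 in the Il33 and -0.339 in the Cxcl12 window, where that of VAT 1 minus SAT 1 was -7.26 and -6.46. In the Il6 window these medians were -12.6 over 3 regions and 7.89 over 4. What replicate number stands for is not given in the labels, and its part in these values was not tested.

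The Il6 window was led by 1 region. Il6 +69.3 (30339330 to 30339955 on chromosome 5, 626 bp) had authors' scores of 295 in SAT 1, 150 in SAT 2, 309 in VAT 1 and 299 in VAT 2, or percentiles of 91.8, 78.3, 90.03 and 89.0. In SAT 2 the region held 2 separate peaks, and the centres of the highest peak lay 183 bp apart over the libraries, against a median of 80 bp over all regions with a peak in all 4 libraries. Il6 +129.9 (30399949 to 30400250) was also found in all libraries, at 39.4, 48.7, 67.6 and 55.0. Between Il6 +77.1 and Il6 +129.8 no library had a peak over 52.6 kb. Il6 +57.4 (30327408 to 30327983) had no peak in SAT 1, and 32.4 in SAT 2, 72.3 in VAT 1 and 52.0 in VAT 2. At Il6 +57.4 and Il6 +129.9 both visceral percentiles thus lay above both subcutaneous ones, with a missing peak counted as lowest. Il6 +27.3 and Il6 +77.1 had a peak in both replicate 1 libraries alone. Il6 +58.9 had one in VAT 1 alone and Il6 +129.8 in SAT 1 alone. Over all merged regions these 3 patterns made up 9.37%, 8.58% and 7.84%.

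Around Cxcl12, which stromal cells of many tissues make at high level, no region had a peak in all 4 libraries, and 7 of the 14 regions rested on 1 library. Of all merged regions, 23.2% had a peak in all 4 libraries and 36.4% rested on 1 library. Cxcl12 +68.5 (117118523 to 117118813 on chromosome 6) had percentiles of 60.7 (SAT 1), 60.4 (VAT 1) and 46.8 (VAT 2), and no peak in SAT 2. Cxcl12 +74.0 (117124021 to 117124266) had 17.9, 11.4 and 57.9, highest in VAT 2. The leading peak of VAT 2 in this window stood in that library alone, at Cxcl12 +99.7 (117149654 to 117150026), with a percentile of 62.6. SAT 2 had 2 peaks here, neither of them in the SAT 1 list. Cxcl12 +34.6 (117084647 to 117084924) had 61.4 in SAT 2 and 43.7 in VAT 2, and was the one region of all 4 windows found in both replicate 2 libraries and in no other. Cxcl12 +161.5 (117211467 to 117211593) had 61.4 in SAT 2 and 29.0 in VAT 1. The first region of the window, which crosses its start, and the last, Cxcl12 +179.2, lacked a peak in SAT 2 alone, at percentiles of at most 25.7 and 55.2.

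The Il33 window held 15 regions, and the 3 found in all libraries began between 84.9 and 102.7 kb. Il33 +102.7 (30022735 to 30023155 on chromosome 19) was high throughout, with percentiles of 92.0 in SAT 1, 81.9 in SAT 2, 88.7 in VAT 1 and 88.3 in VAT 2. Il33 +94.8 (30014752 to 30015103) had 82.6, 84.1, 86.6 and 71.2, lowest in VAT 2. Il33 +84.9 (30004875 to 30005134) had authors' scores of 132, 50, 213 and 296, or percentiles of 64.0, 14.6, 78.4 and 88.7, with both visceral libraries above both subcutaneous ones. Of the 3 regions that lacked a peak in SAT 2 alone, Il33 +46.6 (29966573 to 29966843) was highest in VAT 2, with 65.3 in SAT 1, 52.7 in VAT 1 and 73.4 in VAT 2. Il33 +128.0 (30047965 to 30048210) was lowest in VAT 2, with 74.7, 63.5 and 39.3, and Il33 +104.6 had 52.4, 39.6 and 41.7. Il33 +72.0 and Il33 +82.4 had a peak in both replicate 1 libraries alone. The remaining 7 of the 15 regions rested on 1 library each, against 36.4% of all merged regions, with percentiles from 4.37 to 50.6.

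The question of the series, whether progenitors of subcutaneous and visceral fat differ in open chromatin, was asked of the 4 windows together. They held 41 peaks in SAT 1, 13 in SAT 2, 42 in VAT 1 and 37 in VAT 2. SAT 1 lay among the visceral libraries, and SAT 2 stood apart below all of them. The mean was 27.0 ± 19.8 peaks in subcutaneous and 39.5 ± 3.54 in visceral progenitors (SD, n = 2 each), a difference of 12.5 that was smaller than the subcutaneous spread (two-sided exact permutation test, p = 0.667). Without SAT 2 the difference was -1.5 peaks, and with lists of equal length, the 22845 highest-scoring peaks of each, it was also -1.5. As a share of each list, the peaks of the windows made up 0.0722% in SAT 1, 0.0569% in SAT 2, 0.0738% in VAT 1 and 0.0594% in VAT 2. The depot means of this share, 0.0645% ± 0.0108 and 0.0666% ± 0.0102 (SD, n = 2 each), were closer than the libraries of either depot (same exact test, p = 0.667), and the difference changed sign without SAT 2 or without VAT 1 (-0.00555 and -0.00512 percentage points).

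The widths of the peaks in the windows summed to 9482 bp (SAT 1) and 3050 bp (SAT 2) in subcutaneous and 10655 bp (VAT 1) and 9218 bp (VAT 2) in visceral libraries (exact permutation test on depot means, p = 0.667). A peak that crossed a window's edge was counted whole. Window by window, the depots did not overlap in the Il6 window, with 1293 bp and 791 bp in SAT 1 and SAT 2 against 1526 bp and 1388 bp in VAT 1 and VAT 2 (exact permutation test, p = 0.3333). Nor did they in the Cxcl12 window, with 1072 bp and 295 bp against 1474 bp and 1891 bp (exact permutation test, p = 0.3333), whereas in the Ccl and Il33 windows they overlapped. The whole lists were separated in the same direction, covering 15.7 Mb and 5.81 Mb in SAT 1 and SAT 2 against 16.1 Mb and 18.2 Mb in VAT 1 and VAT 2. The 2 windows thus separated the depots in the direction of the lists, and the share of other windows that do so was not counted. Within the visceral depot, VAT 1 lay above VAT 2 in the Il6 window, unlike in the lists. The median score percentile of the peaks was 51.9 in SAT 1, 66.7 in SAT 2, 51.1 in VAT 1 and 43.7 in VAT 2, so that the groups did not overlap (59.3 ± 10.5 against 47.4 ± 5.23, SD, n = 2 each, exact permutation test, p = 0.3333). A design of 2 against 2 libraries cannot give a lower p. With equal-length lists the difference turned from -11.9 to 2.78. In the Il33 window alone the medians did not overlap either, with 60.5 and 81.9 against 52.7 and 56.4 (exact permutation test, p = 0.3333). They rested on 10 peaks in SAT 1, 3 in SAT 2, 11 in VAT 1 and 8 in VAT 2. How often other windows of the genome separate the depots by this median was not counted. After Benjamini-Hochberg adjustment over the 4 values for all windows together each p was 0.667 in the exact permutation test.

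In the full lists no region of the 4 windows was restricted to a depot. A peak in both visceral libraries and neither subcutaneous one was found in 0 of 59 regions, against 4.60% of all merged regions, and the reverse in 0 of 59 against 0.110%. A count of 0 in 59, taken as at most 3, allows a share of up to 5.08% (Clopper-Pearson upper limit 6.06%), so that a share like that of all regions could not have been told from 0 here. Regions restricted to both replicate 1 libraries numbered 8 (13.6%, 95% Clopper-Pearson interval 6.04% to 25.0%), against 9.37% of all regions. The 8 regions lay in the Ccl window (Ccl +87.4, Ccl +128.4 and Ccl +129.6), the Il6 window (2), the Cxcl12 window (Cxcl12 +168.4) and the Il33 window (2). Those restricted to both replicate 2 libraries numbered 1 (Cxcl12 +34.6), against 0.652%. SAT 1 and VAT 2 share neither depot nor replicate number, and a peak in these libraries alone was also found in 0 of 59, against 4.93%. A peak in all 4 libraries was found in 9 regions (15.3%, 7.22% to 27.0%), against 23.2% of all regions. A peak in every library except SAT 2 was found in 17 (28.8%, 17.8% to 42.1%), against 19.5%. These intervals cover counting error only and hold the share of all regions in each case. In the top 50% of each list by score, 4 of the 31 regions of the windows that were left were restricted to visceral libraries (12.9%, 3.63% to 29.8%), against 4.72% of all regions in that part, and 0 to subcutaneous ones, against 0.179%. The 4 were Ccl +48.9, Ccl +59.0, Il6 +57.4 and Il6 +129.9, each with a lower-ranked peak in at least 1 full subcutaneous list.

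**Figure D3:**
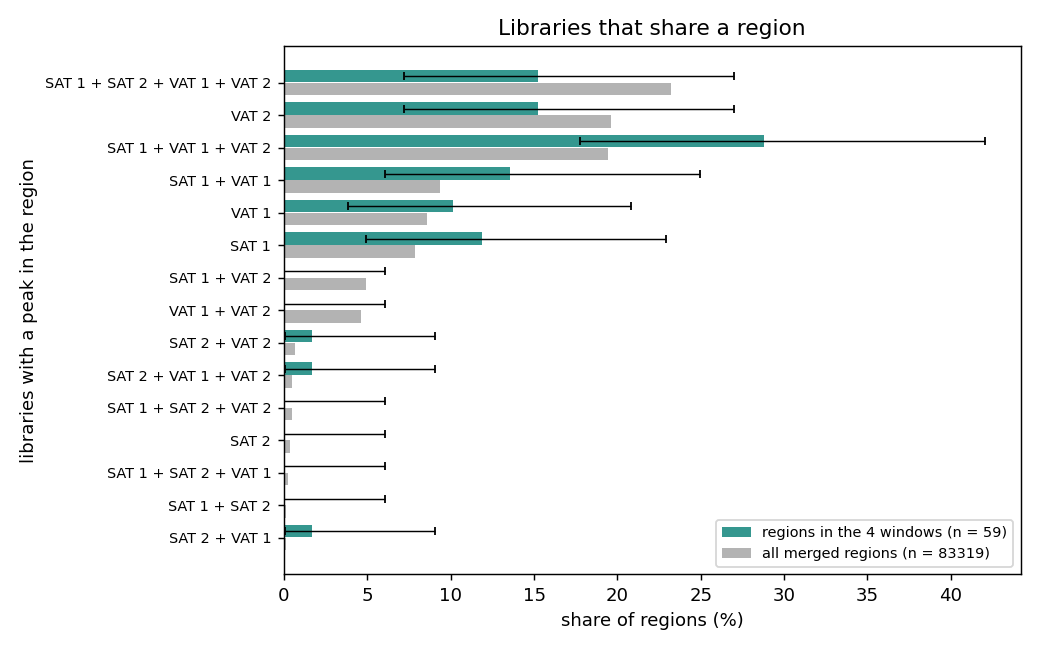
Share of regions (x axis, %) with a peak in exactly the libraries named on the y axis, for the 59 regions of the 4 windows (green, with 95% Clopper-Pearson intervals) and for all 83319 merged regions (grey). The row of both visceral libraries alone is empty for the windows, as is that of SAT 1 and VAT 2 alone. The row lacking only SAT 2 is the longest, at 28.8%.

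The order of the score percentiles was a further measure, chosen with the values in view. With a missing peak counted as lowest, both visceral libraries stood above both subcutaneous ones in 6 of 59 regions (10.2%), against 18.6% of all merged regions. These 6 were Ccl +20.3, Ccl +48.9, Ccl +59.0, Il6 +57.4, Il6 +129.9 and Il33 +84.9. The reverse order was found in 0 regions, against 0.921%. Both replicate 1 libraries stood above both replicate 2 libraries in 22 of 59 regions (37.3%), against 21.7% of all regions, and 12 of these lay in the Ccl window (52.2% of its 23 regions). Both replicate 2 libraries stood above in 1 region, against 2.44%. In the short SAT 2 list the percentile of a shared region is usually lower: over all regions shared by SAT 2 and VAT 2 the median of VAT 2 minus SAT 2 was 21.7. With equal-length lists 20 regions of the windows had a peak, of which 5 (25.0%) were restricted to replicate 1, against 7.35% of the 34383 regions. These 5 were Ccl +36.0, Ccl +37.4, Ccl +61.5, Cxcl12 +68.5 and Il33 +128.0, and each had a lower-ranked peak in the full VAT 2 list. Another 7 of the 20 (35.0%) had a peak in all 4 of these lists, against 38.7%. None of the 20 was restricted to visceral (1.81%), subcutaneous (1.50%) or replicate 2 libraries (4.40%).

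A percentile among the 19350 regions with a peak in all 4 libraries puts each list on the same set of regions. On that scale both visceral libraries stood above both subcutaneous ones in 1 of the 9 such regions of the windows, against 15.0% of all. This was Il33 +84.9, with 23.4 in SAT 1, 10.6 in SAT 2, 46.0 in VAT 1 and 64.6 in VAT 2, and it was the one region with the visceral order on both scales. Both subcutaneous libraries stood above in 2 of 9, against 15.6%. At Il6 +69.3 the values were 76.6 and 74.6 in subcutaneous and 72.2 and 65.3 in visceral libraries, and at Il33 +102.7 they were 77.3 and 78.8 against 68.8 and 63.3. In the full lists these 2 regions had their lowest percentile in SAT 2, so the order depends on the scale. The order at Ccl +20.3 and Il6 +129.9 also did, since there the depots overlapped on this scale. Both replicate 1 libraries stood above both replicate 2 libraries at Ccl +29.7 alone, against 19.1%, and the reverse was found in 0 of 9, against 20.5%. At Ccl +46.3 and Ccl +71.2, where both replicate 1 libraries were higher in the full lists, SAT 2 was highest on this scale.

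**Figure D4:**
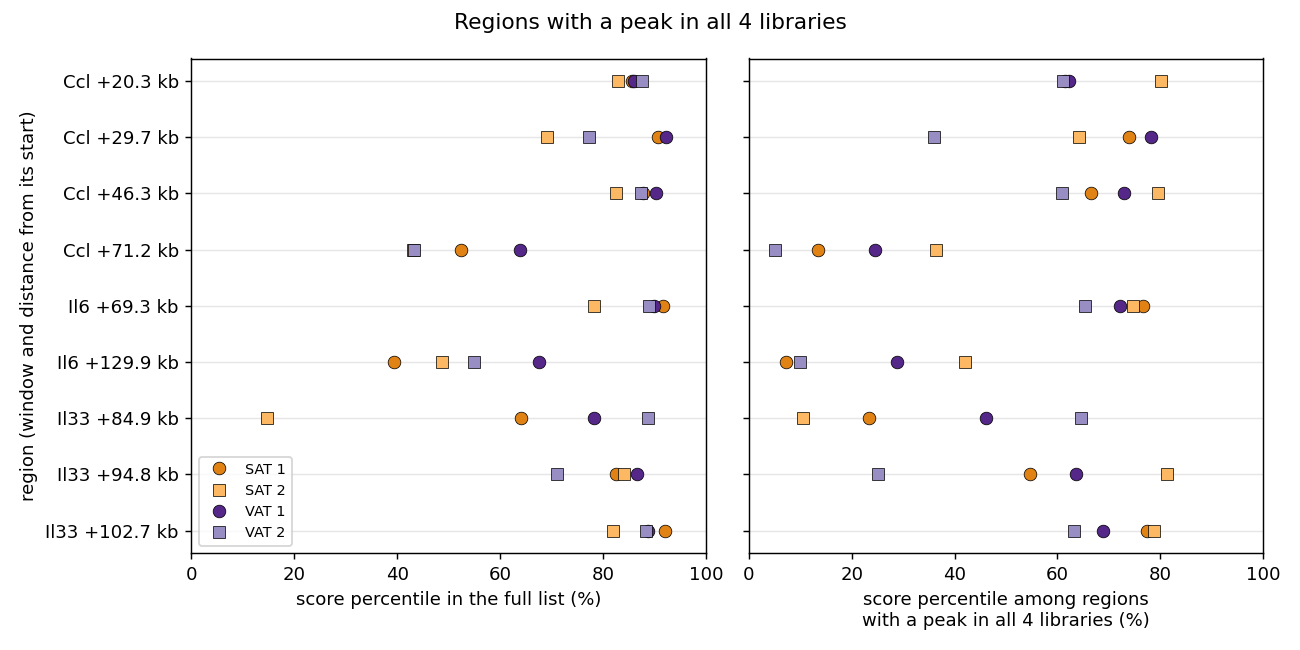
Score percentile of the 9 regions with a peak in all 4 libraries (y axis, window and kb from its start) in SAT 1, SAT 2, VAT 1 and VAT 2: left, within each full list, right, among the 19350 regions with a peak in all libraries (x axes, %). Il33 +84.9 is the one row in which both visceral points lie to the right of both subcutaneous points in both panels.

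The regions of the windows shared by all libraries were narrower in the median than all such regions, but the 59 regions together were not. The median width was 421 bp for the 9 regions with a peak in all 4 libraries, against 524 bp for all such regions, and 246 bp for all 59, against 228 bp for all merged regions. The 9 widths ran from 260 bp to 643 bp, and the difference was not tested. The centre of the highest peak in these 9 regions moved by a median of 34.0 bp over the libraries, against 80 bp for all regions with a peak in all 4. It moved by 21.5 bp at Ccl +20.3 and by 27.5 bp at Il33 +84.9, and the widest spread was that of Il6 +69.3 given above.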

How the data were processed

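Groups and replicate numbers came from the sample titles. Per the submitters' processing notes, Bowtie2, MACS2 and the build mm9 were used, with versions, options and filters not given in the sources. Peaks were called per library, with 1 list each, and the deposited column of scores holds whole numbers of 20 or more on a scale that is not given. Depth is unknown. Scores were turned into percentiles within a list and not compared otherwise.

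Peaks that shared at least 1 bp were merged over the 4 lists. A region was restricted to a pair of libraries if both and neither of the others had a peak in it. Values per library were compared by two-sided exact permutation tests, and shares have 95% Clopper-Pearson intervals. Named regions were those with a peak in all 4 libraries, those restricted to a depot or replicate number, and each library's strongest, by rule; the choice of others followed their values. The genes, windows and lists were chosen with earlier results of these data known. Lists of other pathway genes and of cell type markers needed an mm9 annotation and were not analysed here. Alternatives were equal-length lists, the top 50% of each list, other merging and overlap rules, shorter windows, each library left out and a replicate block. Merging was tested on simulated data and gave the regions of bedtools 2.31.1. Python 3.11.15, numpy 2.4.6, pandas 2.3.3 and scipy 1.17.1 were used.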

Additional observations from a re-analysis of the deposited data

How the results depend on the processing

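Limits are the unknown depth, the short SAT 2 list and the design of 2 libraries against 2. With equal-length lists the difference of visceral minus subcutaneous was -1.5 for the number of peaks in the windows, -0.00657 percentage points for their share of the list and 2.78 for their median percentile. In the top 50% of each list the share differed by -0.0171 percentage points and the median percentile by 0.0591. The same top 50% gave 4 regions restricted to visceral libraries. Regions restricted to replicate 1 numbered 5 with equal-length lists, none of them among the 8 of the full lists, and 5 with windows shortened by 20 kb at each end. Shortened windows left the difference in peaks at 12.5 and gave p = 0.3333 for the number of peaks and for their summed width in the exact permutation test. The 1 region restricted to replicate 2 gave 0 with equal-length lists and 0 in the top 50%. Leaving out 1 library at a time gave differences of -1.5 to 26.5 peaks and -0.00555 to 0.0097 percentage points of the list. The counts were then 1 to 17 visceral, 0 to 7 subcutaneous, 8 to 25 replicate 1, 1 to 10 replicate 2 and 9 to 26 regions found in all libraries left. The highest visceral count came without SAT 1, the highest replicate 1 count without VAT 2, and the other 3 highest without SAT 2, where 1 library stands for a pair by construction. With a replicate block the difference of 12.5 peaks had an exact permutation p = 0.5, the smallest that 2 pairs allow, so that no call was possible with the block or without it. With 2 pairs the data do not show whether the numbers pair the libraries.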

Other observations

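Whether SAT 2 had a peak at a region followed how strong the region was in the other lists. Of the 26 regions of the windows with a peak in SAT 1, VAT 1 and VAT 2, SAT 2 had a peak in 2 of 2 with a median percentile of 90 or more in those lists, 4 of 5 from 80 to 90, 3 of 11 from 50 to 80 and 0 of 8 below 50. Over all regions of the series the shares were 98.2%, 87.4%, 51.1% and 17.3%. The exception from 80 to 90 was Ccl +25.4, at percentiles of 90.5, 88.5 and 69.6.

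The longest stretch with no peak in any library was 40.8 kb in the Ccl window, between 81887599 and 81928369 on chromosome 11, and 52.6 kb in the Il6 window, between 30347244 and 30399811 on chromosome 5. It was 37.3 kb in the Cxcl12 window, between 117150026 and 117187302 on chromosome 6, and 25.1 kb in the Il33 window, between 29966843 and 29991973 on chromosome 19.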
